A study of Mus musculus with 24 samples.

Results

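Cultured microglia exposed to 4 cytokines at once were compared with microglia exposed to 1 of them, IFNa (interferon alpha), alone. The mixture also held interferon gamma (IFNg), interleukin 6 (IL-6) and tumour necrosis factor alpha (TNFa). The comparison used 6 of the 24 RNA-seq libraries of the series, 3 of the mixture and 3 of IFNa, taken by their labels. All cells came from the brains of neonatal MRL/lpr mice, were selected for CD11b and were cultured for 48 h (DMEM/F-12, 10% FBS) before 6 h with cytokine. The lpr allele disrupts Fas in this lupus-prone strain, so the IFNa cells carried it as well. Neonatal cells of the same kind exposed to IFNg, IL-6 or TNFa alone, or left unstimulated, gave 12 further libraries that entered the same fit and are set beside the results. The 6 libraries of adult mice were not used. Cytokine doses are not in the labels, so it is not known whether the mixture held as much IFNa as the IFNa culture did. The labels do not say whether cells of several animals were pooled, nor that replicates came from separate cultures or animals, so the p-values measure the spread between these libraries.

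Type I interferons such as IFNa signal through the kinases JAK1 and TYK2 to a complex of STAT proteins and IRF9, which binds interferon-stimulated response elements. IFNg acts through JAK1, JAK2 and STAT dimers at gamma-activated sites, IL-6 through gp130 and STAT3, and TNFa through TNF receptors, the IKK complex and NF-kappaB. Microglia are the resident macrophages of the brain, carry receptors for each of these cytokines and answer them with antiviral, antigen-presenting and inflammatory gene programmes. Setting the mixture against IFNa asks what changes when the other cytokines are present together with IFNa.

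Some libraries stood apart from others of their group. In mixture replicate 2, the transcription factor gene Irf1 was at 418 CPM (read counts scaled to a common library size by TMM, the trimmed mean of M values), against 1280 and 1360 CPM in the other mixture libraries. Ciita, Socs1 and Cxcl9 were low in the same library, and Tnfrsf1b and Tlr2 were high. Of 8822 genes compared, 25 were at least 2-fold above and 87 at least 2-fold below both other mixture libraries there. By the same measure 169 and 42 genes stood apart in mixture replicate 1, 105 and 58 in mixture replicate 3, 118 and 4 in IFNa replicate 1, 10 and 21 in IFNa replicate 2 and 112 and 101 in IFNa replicate 3. The 6 neonatal libraries that carry replicate number 1 had higher summed markers of astrocytes (359 against 63.9 CPM in the libraries numbered 2 and 3). Their markers of neurons (64.8 against 27.6 CPM) and of mural cells or fibroblasts (392 against 176 CPM) were also higher. Their oligodendrocyte and endothelial markers were lower (171 against 218 CPM and 89.3 against 109 CPM). So were their summed markers of microglia and brain macrophages (5982 against 7084 CPM) and of border macrophages (1515 against 1691 CPM). Markers of oligodendrocyte precursors (62.5 against 35 CPM) and of monocytes (272 against 200 CPM) were higher. Number 1 occurs once in every group, and the fit holds the replicate number as a block. The part of these differences in the results was not tested, and values without these libraries are given where they differ by much.

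Of 14626 genes tested, 1340 (9.16%) were higher and 1349 (9.22%) were lower with the mixture at an edgeR adjusted p under 0.05, the threshold for "rose" and "fell" below. At least 2-fold changes among them numbered 425 higher (2.91%) and 309 lower (2.11%), and the median log2 fold change over all genes was -0.03. Among the named genes whose mean log2 CPM was 3 or more, the largest increases were those of Cxcl9, Cxcl11, Nos2 and Traf1, while canonical type I interferon-stimulated genes did not pass the test (plot of all genes). Scaling by total counts instead of TMM gave 731 higher and 3731 lower calls, a share of 16.4% higher against 49.8%, and shifted the median of all genes to -0.27. Without the block the calls numbered 608 higher and 553 lower, and without the number 1 libraries 665 and 501. Leaving out IFNa replicate 3 gave 848 higher and 785 lower calls, and leaving out mixture replicate 3 gave 763 lower. The 6 libraries fitted alone, with 2 residual degrees of freedom, gave 963 higher and 723 lower calls. Log2 fold changes are given ± SE, mixture minus IFNa, unless another comparison is named.

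**Figure D1:**
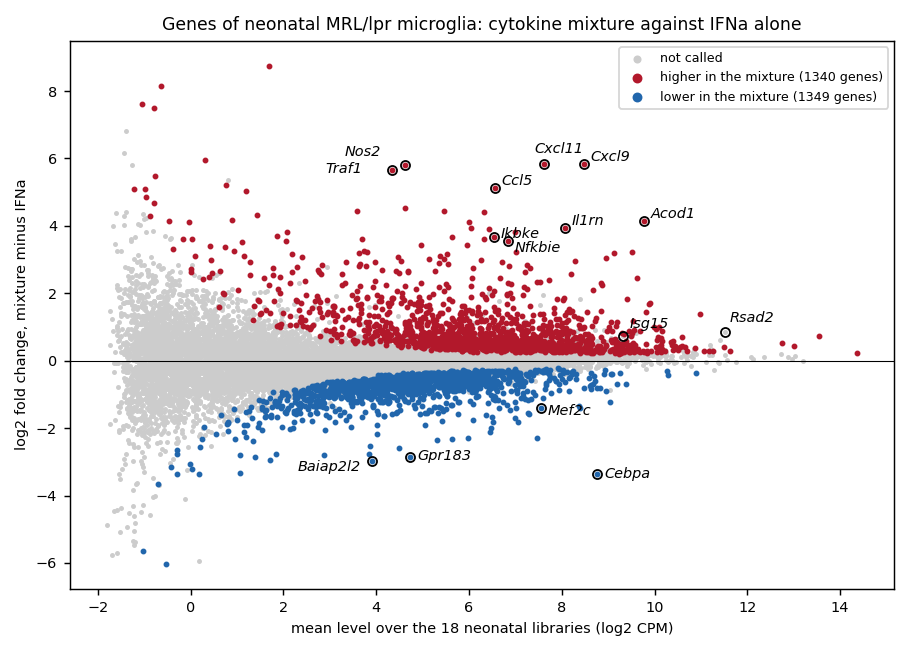
Log2 fold change, mixture minus IFNa, of each of 14626 genes (y axis) against its mean level over the 18 neonatal libraries (x axis, log2 CPM). Red points are the 1340 genes that were higher and blue points the 1349 that were lower with the mixture, and grey points were not called. Cxcl9, Cxcl11, Nos2 and Traf1 lie between 5.67 and 5.84, Rsad2 and Isg15 are grey, and Cebpa lies at -3.37.

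For 7 gene lists the promoter is shown of the called member with the largest change among those matched in the RefSeq promoter table, taken from lists of the pathways these cytokines are known to drive and of microglial identity. They are the 250 bases before the start listed by RefSeq (GRCm38.p6, the mm10 assembly), 5′ to 3′ on the gene's strand, in lower case. Capitals mark matches to TTCNNNGAA (a gamma-activated site), GAAANNGAAA (2 half-sites of a response element to interferon) or GGGANNTTCC (an NF-kappaB motif), searched on both strands. The listed start of Socs3 lies 180 bases from that of its principal transcript, so its window may miss the promoter of that transcript.
Tgtp1 (chr11:48992247-48992496, minus strand): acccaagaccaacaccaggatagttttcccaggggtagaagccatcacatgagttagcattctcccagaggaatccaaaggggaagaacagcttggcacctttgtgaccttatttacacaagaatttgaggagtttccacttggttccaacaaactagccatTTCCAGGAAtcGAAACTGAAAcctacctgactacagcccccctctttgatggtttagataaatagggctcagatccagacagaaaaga
Cxcl9 (chr5:92328080-92328329, minus strand): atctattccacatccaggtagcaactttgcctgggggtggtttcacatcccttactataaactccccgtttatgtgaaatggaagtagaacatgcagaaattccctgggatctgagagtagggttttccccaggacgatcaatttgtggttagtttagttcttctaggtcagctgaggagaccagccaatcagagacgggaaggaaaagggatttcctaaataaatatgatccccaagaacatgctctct
Traf1 (chr2:34961773-34962022, minus strand): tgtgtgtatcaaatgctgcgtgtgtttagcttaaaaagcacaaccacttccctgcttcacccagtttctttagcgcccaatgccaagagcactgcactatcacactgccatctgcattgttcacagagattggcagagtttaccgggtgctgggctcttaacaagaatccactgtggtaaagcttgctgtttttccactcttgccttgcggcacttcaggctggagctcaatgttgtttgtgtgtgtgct
Socs3 (chr11:117969367-117969616, minus strand): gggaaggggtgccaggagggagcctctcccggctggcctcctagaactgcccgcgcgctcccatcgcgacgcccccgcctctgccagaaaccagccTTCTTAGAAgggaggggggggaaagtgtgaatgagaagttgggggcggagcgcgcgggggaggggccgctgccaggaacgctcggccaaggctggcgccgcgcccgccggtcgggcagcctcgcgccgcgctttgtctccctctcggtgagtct
H2-Oa (chr17:34092129-34092378, plus strand): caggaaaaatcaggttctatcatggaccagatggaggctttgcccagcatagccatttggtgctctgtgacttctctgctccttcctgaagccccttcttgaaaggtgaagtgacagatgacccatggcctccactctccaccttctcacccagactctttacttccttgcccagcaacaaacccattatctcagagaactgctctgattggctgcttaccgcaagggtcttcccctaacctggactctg
Acod1 (chr14:103046762-103047011, plus strand): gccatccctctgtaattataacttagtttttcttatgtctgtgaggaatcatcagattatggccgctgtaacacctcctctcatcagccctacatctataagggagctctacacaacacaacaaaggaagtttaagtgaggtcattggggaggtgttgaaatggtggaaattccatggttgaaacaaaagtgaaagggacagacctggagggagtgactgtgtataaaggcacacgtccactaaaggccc
Mef2c (chr13:83503784-83504033, plus strand): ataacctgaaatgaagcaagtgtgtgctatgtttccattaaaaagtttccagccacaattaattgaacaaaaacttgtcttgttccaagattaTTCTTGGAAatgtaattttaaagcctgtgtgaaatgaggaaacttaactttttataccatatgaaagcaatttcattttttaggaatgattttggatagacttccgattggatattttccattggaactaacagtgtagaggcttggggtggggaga
Tgtp1, an interferon-inducible GTPase gene, held a gamma-activated site match next to a half-site pair, and Socs3 and Mef2c held 1 gamma-activated site match each. The other promoters held no match to these letters. Among the 10707 genes tested that had a promoter, 5.72% held TTCNNNGAA, 2.9% held GAAANNGAAA and 1.27% held GGGANNTTCC. Among the 323 promoters of genes at least 2-fold higher with the mixture these shares were 10.8%, 6.5% and 2.17%, and among the 238 of genes at least 2-fold lower they were 7.56%, 0.84% and 0%. Of 11 interferon-inducible GTPase promoters, 10 held GAAANNGAAA and 6 held TTCNNNGAA, and of 30 promoters of type I interferon-stimulated genes 14 and 5 did. GAAANNGAAA took a smaller share of promoters in each other list, at most 20%. TTCNNNGAA did not, as 3 of 8 receptor promoters and 4 of 24 promoters of the NF-kappaB list held it. GGGANNTTCC occurred in 1 of 24 promoters of NF-kappaB subunits, feedback genes and targets and in 4 of 12 chemokine promoters. TTCNNNGAA occurred in 2 of 17 promoters of the STAT3 and IL-6 list. A match is a stretch of letters, and binding was not measured.

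The series concerns Ikbke. Its product, IKKepsilon, is related to TBK1, and both kinases can activate interferon regulatory factors. The gene lies on mm10 chromosome 1, 131254343 to 131279606, minus strand. Ikbke was at 229, 304 and 301 CPM in the mixture libraries, against 19.7, 28.1 and 16.6 CPM in the IFNa libraries. The groups did not overlap, and Ikbke rose by 3.68 ± 0.195 on the log2 scale (12.8-fold, edgeR adjusted p = 3.14e-09). Its mean level was 192 CPM with TNFa alone, 43 with IFNg, 15.6 with IL-6 and 7.4 in unstimulated cells. The mixture was 0.53 ± 0.172 above TNFa alone (edgeR adjusted p = 0.0227), which did not pass without the block (adjusted p = 0.101), with total counts (adjusted p = 0.382), without mixture replicate 2 (adjusted p = 0.0557) or without the number 1 libraries (adjusted p = 0.173). IFNa alone was 1.56 ± 0.2 above unstimulated cells (edgeR adjusted p = 1.9e-05).

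Around IKKepsilon, 9 of 24 tested genes of the TBK1-IKKepsilon axis rose and 1 fell, with a median of 0.24. The scaffold gene Tank, whose protein binds TBK1 and IKKepsilon, was at 135, 149 and 140 CPM with the mixture, against 43.8, 58.6 and 35.1 CPM with IFNa (1.64 ± 0.163, edgeR adjusted p = 1.81e-06). Tbk1 itself rose by 0.59 ± 0.133 and Tmem173, which encodes the DNA-signalling adaptor STING, by 1.55 ± 0.315. Mavs, the mitochondrial adaptor of RNA sensors, fell to 15.2, 16.9 and 19.5 CPM with the mixture, against 23.1, 20.4 and 33 CPM with IFNa (-0.55 ± 0.13, edgeR adjusted p = 0.00579). The call of Mavs was lost without the block, in the 6 libraries alone, without mixture replicate 3, without IFNa replicate 3 and without the number 1 libraries, and the count of higher members was 5 without the block or without the number 1 libraries. Total counts gave 5 higher and 5 lower, so the direction of this list depends on the scaling. The subunits of the canonical IKK complex, Ikbkb, Chuk and Ikbkg, did not pass the test (-0.02 ± 0.102, -0.16 ± 0.102 and -0.13 ± 0.11). Ifnb1, the gene of interferon beta, did not pass the filter on low counts. It had 68 reads over the mixture libraries and 0 over the IFNa libraries, at least 24.8-fold higher when the IFNa group is set to 3 reads, a floor that covers counting error only.

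Fas, the gene mutated by lpr, was at 10.1, 4.88 and 7.85 CPM with the mixture, against 0.533, 0 and 0.22 CPM with IFNa. It rose by 5.03 ± 0.751 (edgeR adjusted p = 0.00012), and the mixture was 1.84 ± 0.614 above IFNg alone and 1.6 ± 0.603 above TNFa alone (edgeR adjusted p = 0.0337 and 0.0447). Both of these calls were lost without the block (adjusted p = 0.17 and 0.203), with total counts, without any 1 of the mixture libraries and without the number 1 libraries. The counts do not show which Fas allele or transcript form was read.

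Of 8 receptor genes for the applied cytokines 1 rose and 2 fell, with a median of 0.19. Among all genes tested 9.16% rose and 9.22% fell, so counts this small do not set the list apart. Il6st encodes gp130, the signalling chain of the IL-6 receptor, and was at 106, 140 and 253 CPM with the mixture, against 288, 337 and 703 CPM with IFNa. It fell by 1.40 ± 0.155 on the log2 scale, and Il6ra, the IL-6-binding chain, fell by 0.93 ± 0.119 (edgeR adjusted p = 1.09e-05 and 2.44e-05), though Il6ra lost its call without the block. With TNFa alone Il6st averaged 154 CPM, near the mixture (0.03 ± 0.153, edgeR adjusted p = 0.927), and with IL-6 alone 531 CPM. Ifngr2, a chain of the IFNg receptor, was at 165, 274 and 272 CPM with the mixture, against 167, 192 and 205 CPM with IFNa, so the groups overlapped. Its call (0.31 ± 0.1, edgeR adjusted p = 0.0345) was lost in 8 of the 15 alternatives, among them each left-out IFNa library, mixture replicate 2 and mixture replicate 3. Without mixture replicate 1 the number of higher receptors was 3. The remaining chains, Ifngr1, Ifnar1, Ifnar2, Tnfrsf1a and Tnfrsf1b, did not pass, with log2 fold changes of -0.18 to 0.68. Ifngr1 averaged 117 CPM in unstimulated cells and lay between 25.9 and 44.8 CPM in the 6 libraries of mixture and IFNa.

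Among the kinases, STATs and IRFs of these pathways, 10 of 19 tested genes rose and 0 fell, with a median of 0.40, and 6 rose without the number 1 libraries. IRF1, a factor first described for interferon genes, and IRF8, a factor of the myeloid lineage, showed the pattern of replicate 2 described above. Irf1 was at 1280, 418 and 1360 CPM with the mixture, against 186, 227 and 184 CPM with IFNa (2.31 ± 0.38, edgeR adjusted p = 0.00162). Without mixture replicate 2 its change was 2.79, and in the 6 libraries alone or without the number 1 libraries it did not pass. Irf8 was at 2310, 651 and 2690 CPM with the mixture, against 543, 668 and 497 CPM with IFNa, so mixture replicate 2 lay within the IFNa range (1.68 ± 0.404, edgeR adjusted p = 0.0145). With IFNg alone Irf1 averaged 1250 CPM, and the mixture did not differ from it beyond error (-0.34 ± 0.362, edgeR adjusted p = 0.567). Batf2, a partner of IRF1, rose by 2.21 ± 0.432 and likewise lost its call in the 6 libraries alone and without the number 1 libraries. Jak2, the kinase of the IFNg receptor, was at 242, 249 and 246 CPM with the mixture, against 132, 153 and 113 CPM with IFNa (0.89 ± 0.138). Stat3 rose by 0.83 ± 0.131. Stat2 and Irf9, components of the IFNa-activated complex, did not pass (0.05 ± 0.18 and -0.04 ± 0.136).

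Feedback inhibitors of JAK-STAT signalling rose in 3 of 11 and fell in 1. Socs3, the inhibitor induced by STAT3 whose window is printed above, was at 77.9, 95.3 and 128 CPM with the mixture, against 11.8, 9.85 and 3.82 CPM with IFNa (3.63 ± 0.522, edgeR adjusted p = 0.000707). It averaged 180 CPM with IL-6 alone and 143 CPM with IFNg alone, and the mixture differed from neither beyond error (-0.81 ± 0.448 and -0.46 ± 0.448, edgeR adjusted p = 0.187 and 0.527). Socs1, the inhibitor of JAK kinases in interferon signalling, was at 515, 92.2 and 394 CPM with the mixture, against 41.2, 52.8 and 10.1 CPM with IFNa (3.23 ± 0.671, edgeR adjusted p = 0.00706). All mixture libraries lay above the IFNa libraries, with replicate 2 closest to them, and the call was lost in the 6 libraries alone and without the number 1 libraries. Socs6 fell by 0.63 ± 0.106. Of these inhibitors 1 rose without the number 1 libraries and 5 without IFNa replicate 2, while total counts gave 2 higher and 3 lower. Usp18, a type I interferon-induced inhibitor of the IFNa receptor, was at 1140, 1280 and 1090 CPM with the mixture, against 964, 1080 and 616 CPM with IFNa, and did not pass (0.34 ± 0.459).

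Canonical type I interferon-stimulated genes, the antiviral programme of IFNa, were called in 0 of 41 members in either direction, with a median of 0.33 and a range of -0.64 to 0.94. At an unadjusted p under 0.05 there were 6, and the lowest edgeR adjusted p was 0.053, for Parp14. With IFNa alone 40 of the 41 were above unstimulated cells at an adjusted p under 0.05, while 25.4% of all genes were called in either direction. Rsad2, which encodes viperin, was at 10800, 12000 and 9290 CPM with the mixture, against 5650, 7430 and 4080 CPM with IFNa and 45.8, 53.2 and 265 CPM in unstimulated cells (0.86 ± 0.637, edgeR adjusted p = 0.432). Isg15, a ubiquitin-like modifier, was at 1590, 1930 and 1970 CPM with the mixture, against 1040, 1140 and 1070 CPM with IFNa (0.73 ± 0.313, adjusted p = 0.143). Ifit3 was at 2120, 2800 and 1900 CPM with the mixture, against 2040, 2680 and 1960 CPM with IFNa, and these ranges overlapped. In 17 of the 41 genes all mixture libraries lay above all IFNa libraries and in 0 all lay below, against 1642 and 1807 of the 14626 genes tested.

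The 95% interval of the change ended below 2-fold higher for 24 members and held 0 for 35. Increases of under 2-fold are not excluded for these, nor larger ones for the remaining members, and 37 of the 41 estimates were above 0. Across the alternatives the count of higher members was mostly 0 to 3, and it was 18 when the 6 libraries were fitted alone, where the spread is estimated from 2 degrees of freedom. Unstimulated replicate 3 had more of these transcripts than the other unstimulated libraries, for instance 2320 CPM of Irf7 against 636 and 809 CPM. That library enters the estimate of spread, and its part in these counts was not tested.

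**Figure D2:**
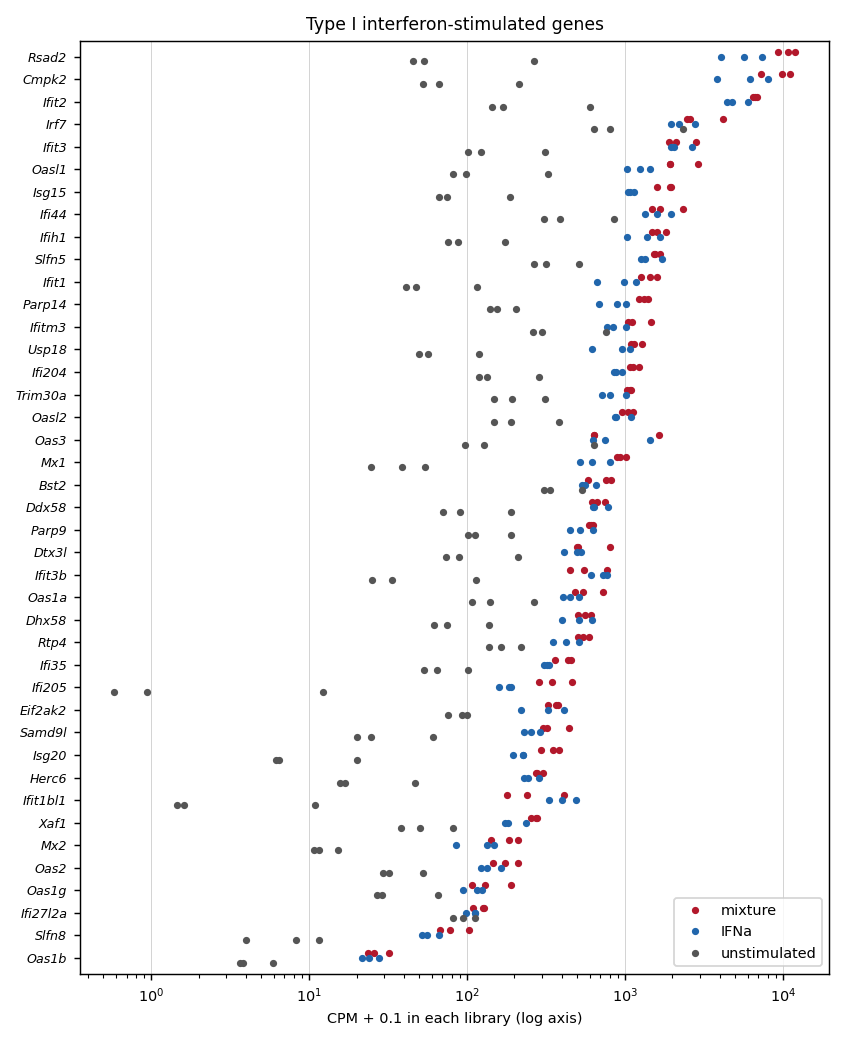
Level of each of 41 type I interferon-stimulated genes in every library (x axis, CPM + 0.1, log axis), with mixture libraries in red, IFNa libraries in blue and unstimulated libraries in grey. Mixture and IFNa points lie close together on this axis, although in 17 genes all mixture points lie to the right of all IFNa points. The reverse holds in 0 genes. For most genes the unstimulated points lie far to the left, as for Rsad2 (45.8 to 265 CPM).

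Interferon-inducible GTPases, which attack vacuoles of intracellular pathogens, rose in 8 of 18 tested members and fell in 0, with a median of 1.44. All 18 estimates were positive, and all 18 genes were above unstimulated cells with IFNa alone. Tgtp1 was at 85.5, 31.1 and 93.4 CPM with the mixture, against 9.24, 13.2 and 7.71 CPM with IFNa (2.69 ± 0.602, edgeR adjusted p = 0.0135). Gbp2b, a guanylate-binding protein gene, was at 87.1, 54.8 and 81.3 CPM with the mixture, against 14.2, 13.2 and 7.78 CPM with IFNa (2.65 ± 0.433, edgeR adjusted p = 0.00123). Mixture replicate 2 was the lowest mixture library in both. The mixture did not differ beyond error from IFNg alone for Gbp2b (0.20 ± 0.398, edgeR adjusted p = 0.772) and Tgtp1 (1.54 ± 0.565, adjusted p = 0.0781). Tgtp1 lost its call against IFNa in 7 alternatives. How many GTPases rose depended on single libraries. The number was 1 without mixture replicate 1, without IFNa replicate 3 or without the number 1 libraries, 3 without mixture replicate 3, without IFNa replicate 1 or in the 6 libraries alone, 4 without the block and 5 with total counts. Tgtp1 has a near-identical copy, Tgtp2, and Gbp6 one in Gbp10, so the split of reads between them is uncertain.

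NF-kappaB subunits, feedback genes and targets rose in 27 of 31 members with 0 lower and a median of 1.39, and the count stayed between 25 and 28 in all alternatives. Traf1, an adaptor of TNF receptors, was at 47, 70.4 and 79.1 CPM with the mixture, against 1.13, 1.66 and 0.954 CPM with IFNa (5.67 ± 0.439, edgeR adjusted p = 1.16e-06). Nfkbie, which encodes the inhibitor IkappaB epsilon, was at 264, 339 and 375 CPM with the mixture, against 23.2, 37.6 and 22.7 CPM with IFNa (3.56 ± 0.176, edgeR adjusted p = 1.25e-09). All mixture libraries lay above all IFNa libraries for both genes. With TNFa alone Traf1 averaged 51.9 CPM and did not differ beyond error from the mixture (0.34 ± 0.32, edgeR adjusted p = 0.458), while Nfkbie averaged 237 CPM and was 0.46 ± 0.157 lower with TNFa than with the mixture (adjusted p = 0.0291). This last call was lost without the block (adjusted p = 0.112), with total counts, without mixture replicate 3 and without the number 1 libraries. Among the subunits, Nfkb2 (2.34 ± 0.11), Relb (1.96 ± 0.109), Nfkb1 (1.25 ± 0.114), Rela (0.90 ± 0.089) and Rel (0.76 ± 0.121) all rose. The feedback inhibitors Nfkbia, Nfkbib and Tnfaip3 rose by 1.86 ± 0.14, 1.84 ± 0.117 and 2.27 ± 0.183. Sod2, the mitochondrial superoxide dismutase and an NF-kappaB target, was at 666, 587 and 697 CPM with the mixture, against 87.4, 95.8 and 68.9 CPM with IFNa (2.97 ± 0.132). The members that did not pass were Bcl2l1, Cd83, Zc3h12a and Map3k8.

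Genes driven by STAT3 or tied to IL-6 rose in 12 of 20 members and fell in 1, Il6ra, with a median of 1.07. Pim1, a survival kinase, was at 545, 471 and 587 CPM with the mixture, against 120, 142 and 57.8 CPM with IFNa (2.33 ± 0.309, edgeR adjusted p = 0.000292). Hif1a, the hypoxia-inducible factor, rose by 1.63 ± 0.211 and Cebpb, an inflammatory C/EBP factor, by 1.48 ± 0.13. Several members are also targets of NF-kappaB, and Bcl3 stands in both lists. Stat3, Socs3 and Junb stand in other lists as well. Il4ra, a receptor chain induced by IL-6, was at 56.9, 59.1 and 115 CPM with the mixture, against 41.4, 43.5 and 72.4 CPM with IFNa (0.54 ± 0.152), and averaged 548 CPM with IL-6 alone.

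**Figure D3:**
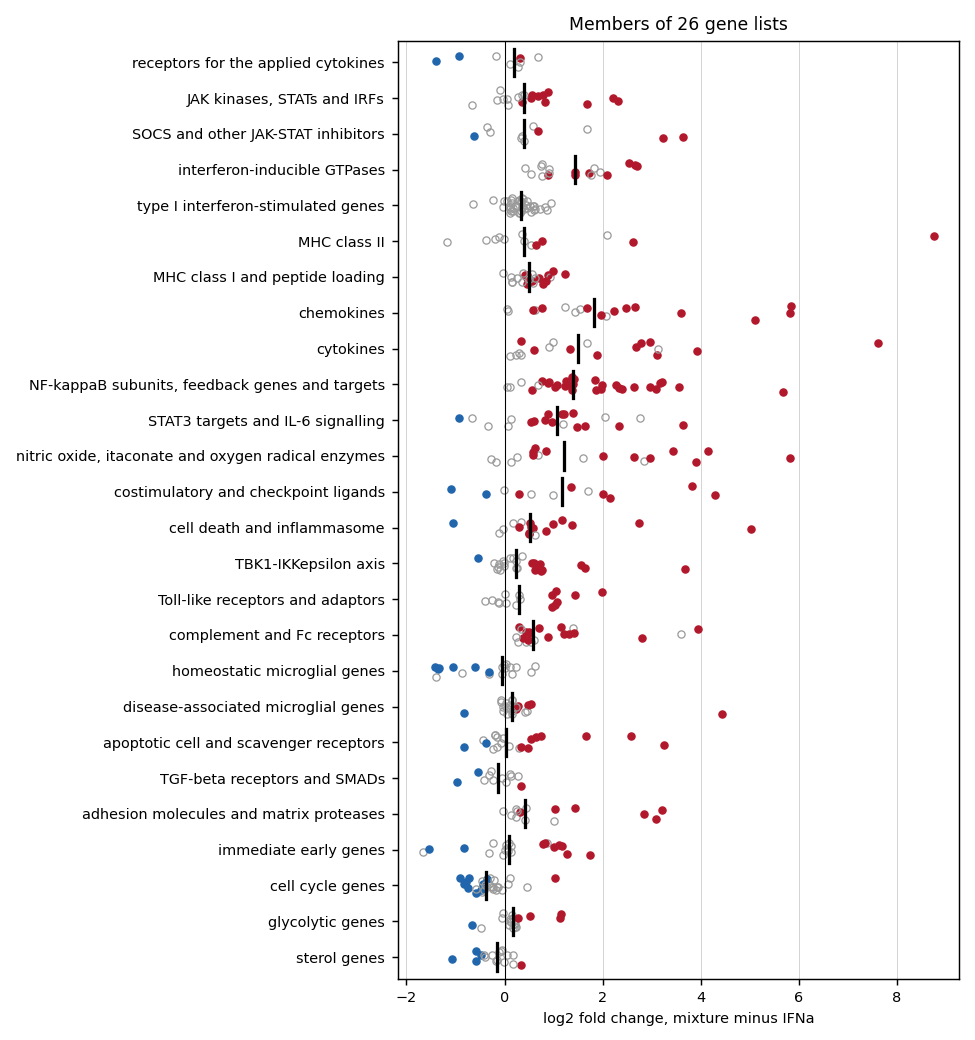
Log2 fold change, mixture minus IFNa, of the tested members of 26 gene lists (x axis), 1 row per list. Filled red and blue points are members that rose and fell, open grey points were not called, and black bars are list medians. The row of type I interferon-stimulated genes holds only grey points between -0.64 and 0.94, and the NF-kappaB row 27 red points of 31.

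Chemokines rose in 11 of 18 tested members and fell in 0, with a median of 1.82. Ligands of CXCR3, the receptor of activated T cells, led them. Cxcl9 was at 2380, 657 and 1980 CPM with the mixture, against 39.1, 60.8 and 7.12 CPM with IFNa (5.84 ± 0.788, edgeR adjusted p = 0.000518). Replicate 2 was again the lowest mixture library, without it the change was 6.63, and the call was lost in the 6 libraries alone and without the number 1 libraries. Cxcl11 was at 1020, 902 and 1400 CPM with the mixture, against 15.4, 24.2 and 17.2 CPM with IFNa (5.82 ± 0.64, edgeR adjusted p = 0.000119). For Cxcl11 the mixture libraries were close together. Cxcl10 was at 3420, 3530 and 2790 CPM with the mixture, against 616, 907 and 197 CPM with IFNa (2.47 ± 0.699, edgeR adjusted p = 0.0327). Ccl5, an attractant of T cells and monocytes, was at 532, 689 and 309 CPM with the mixture, against 13.4 to 15.8 CPM with IFNa (5.11 ± 0.445, edgeR adjusted p = 1.49e-05). Cxcl16, a ligand of CXCR6 on lymphocytes, was at 728, 927 and 999 CPM with the mixture, against 159, 187 and 215 CPM with IFNa (2.24 ± 0.0946, edgeR adjusted p = 7.85e-11). The neutrophil attractants Cxcl1, Cxcl2, Cxcl3 and Cxcl5 did not pass. The number of chemokines that rose was 7 without IFNa replicate 3 and 6 without the number 1 libraries. Ccl2 and Ccl12 are near-identical in part, so reads may be split between them.

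Ccl5 and Cxcl11 were far below the mixture with every single cytokine. In all, 26.3% of genes were called between mixture and IFNg, 39.4% between mixture and IL-6 and 37% between mixture and TNFa. Ccl5 averaged 12 CPM with IFNg, 6.21 with IL-6, 15.4 with TNFa and 4.94 in unstimulated cells, and the mixture was above IFNg, IL-6 and TNFa by 5.46 ± 0.454, 6.39 ± 0.482 and 5.12 ± 0.445 (edgeR adjusted p = 6.44e-06, 8.47e-07 and 3.15e-06). Cxcl11 averaged 45.9 CPM with IFNg and 7.88 with TNFa, and the mixture was above them by 4.62 ± 0.599 and 7.45 ± 0.7 (edgeR adjusted p = 0.000215 and 8.7e-06). Cxcl9 averaged 420 CPM with IFNg, 2.19 ± 0.664 below the mixture (edgeR adjusted p = 0.0334), a call lost without the block and in 6 other alternatives. These comparisons share the mixture libraries and are not independent of each other.

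Cytokine genes rose in 10 of 18 tested members, with 0 lower and a median of 1.5, and in 5 without the number 1 libraries. Il1rn, the IL-1 receptor antagonist, was at 1200, 869 and 1850 CPM with the mixture, against 76, 106 and 59.8 CPM with IFNa (3.93 ± 0.32, edgeR adjusted p = 6.68e-06). Il1b was at 19.3, 52.7 and 10.6 CPM with the mixture, against 5.15, 5.19 and 1.61 CPM with IFNa (2.67 ± 0.269), and averaged 85.8 CPM with TNFa alone. Tnf rose by 1.89 ± 0.25 and Il27, a subunit gene of the cytokine IL-27, by 2.96 ± 0.434. Il12b, the p40 subunit of IL-12 and IL-23, had 61 reads over the mixture libraries and 0 over the IFNa libraries, at least 22.3-fold higher when the IFNa group is set to 3 reads. It was at 2.3, 0.219 and 1.88 CPM in the mixture libraries. Its call (edgeR adjusted p = 0.0168) was lost without mixture replicate 1 or 3, without IFNa replicate 1 or 3 and without the number 1 libraries. DESeq2 gave Il12b no adjusted p. Of the cytokines 6 rose without the block or without IFNa replicate 1. Tgfb1 overlapped between the groups, and its call (0.34 ± 0.0933) was lost without the block, with total counts, without mixture replicate 3, without IFNa replicate 1 and without the number 1 libraries.

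**Figure D4:**
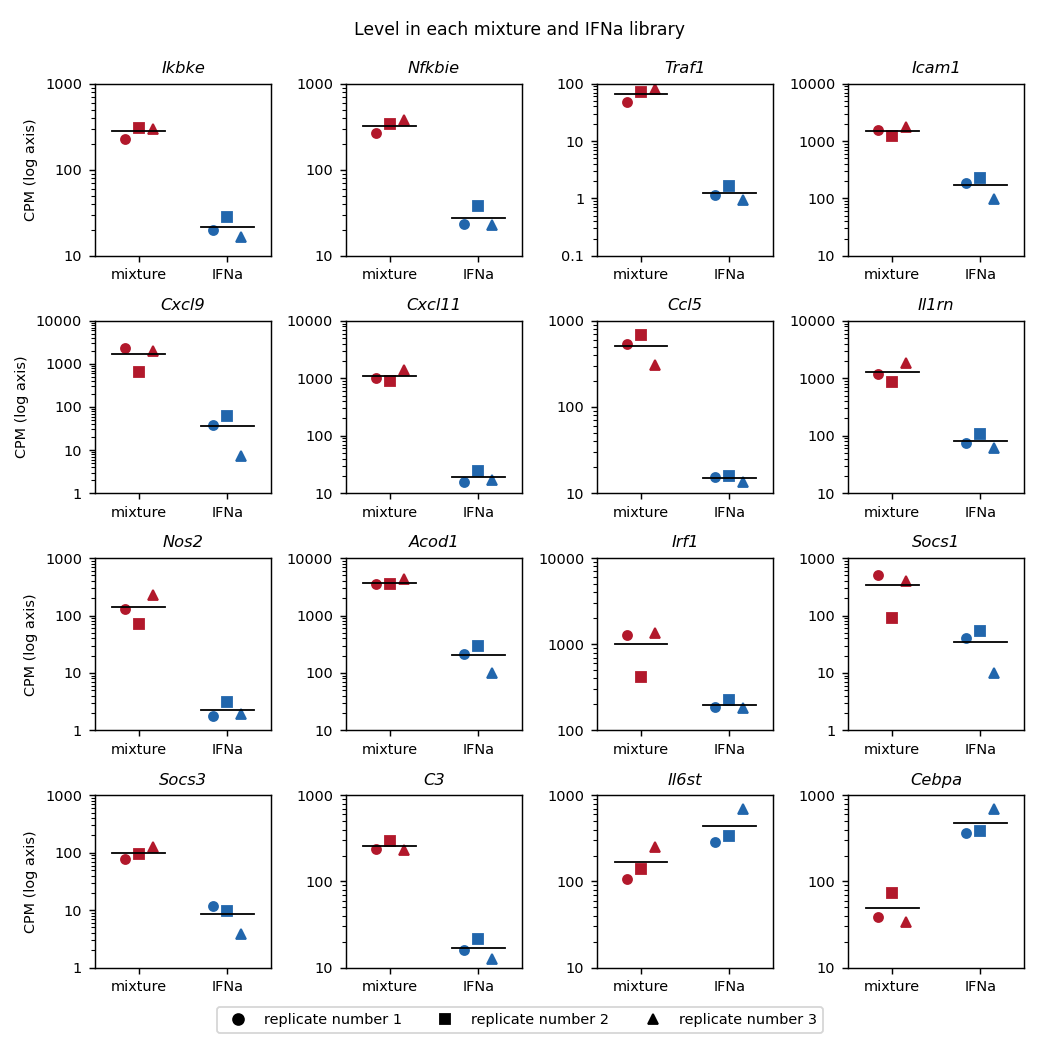
Level of 16 genes in each mixture library (red, left) and IFNa library (blue, right), in CPM on log axes that differ between panels. Symbols mark replicate numbers 1 to 3 and horizontal lines the group means. Irf1 and Socs1 are lowest in mixture replicate 2 (418 and 92.2 CPM), and Il6st and Cebpa are lower with the mixture in all libraries.

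Enzymes of nitric oxide, itaconate and oxygen radical metabolism rose in 11 of 18 tested members and fell in 0, with a median of 1.22. Nos2, the inducible nitric oxide synthase, was at 131, 70.8 and 226 CPM with the mixture, against 1.78, 3.13 and 1.91 CPM with IFNa (5.81 ± 0.478, edgeR adjusted p = 1.66e-05). It averaged 2.47 CPM with IFNg, 0.0767 with IL-6, 1.11 with TNFa and 0 in unstimulated cells, and the mixture was 5.94 ± 0.477 above IFNg alone (edgeR adjusted p = 8.52e-06). Acod1, which makes itaconate, was at 3480, 3480 and 4250 CPM with the mixture, against 210, 299 and 98.2 CPM with IFNa (4.14 ± 0.511, edgeR adjusted p = 0.000273). It averaged 704 CPM with IFNg and 619 CPM with TNFa, both below the mixture (2.41 ± 0.471 and 2.65 ± 0.477 lower, edgeR adjusted p = 0.00316 and 0.0011), calls lost without the number 1 libraries (adjusted p = 0.103 and 0.0691). Ch25h, which makes the antiviral oxysterol 25-hydroxycholesterol, was at 438, 317 and 463 CPM with the mixture, against 38.7, 44.9 and 5.87 CPM with IFNa (3.91 ± 0.585, edgeR adjusted p = 0.000953), a call lost in the 6 libraries alone. Ptges, a prostaglandin E synthase, rose by 3.44 ± 0.373 but averaged 309 CPM with TNFa alone, 2.76 ± 0.322 above the mixture (edgeR adjusted p = 2.13e-05). Ido1 did not pass the filter, with 33 reads over the mixture libraries and 1 over the IFNa libraries, a ratio of 36.1 (95% counting interval 6.05 to 1470).

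Genes of MHC class I and peptide loading rose in 11 of 23 members and fell in 0, with a median of 0.49, and the changes were small. H2-Q4 was at 217, 235 and 374 CPM with the mixture, against 97.2, 99.8 and 150 CPM with IFNa (1.23 ± 0.155, edgeR adjusted p = 2.88e-05). Tap2, a subunit of the peptide transporter, was at 585, 620 and 713 CPM with the mixture, against 312, 344 and 309 CPM with IFNa (0.98 ± 0.123, edgeR adjusted p = 2.02e-05). The groups did not overlap for either, but H2-Q4 lost its call without the block, and reads of the H2-Q genes may be split among near-identical copies. The count was 3 without the block, 6 without IFNa replicate 3 and 7 without the number 1 libraries, and total counts gave 6 higher and 1 lower. Of MHC class II genes 4 of 13 rose and 0 fell, and 2 rose without the block or without the number 1 libraries. Ciita, the class II transactivator, had 156 reads over the mixture libraries and 0 over the IFNa libraries, at least 57-fold higher with that group set to 3 reads (edgeR adjusted p = 0.00719). Its mixture libraries held 5.65, 0.146 and 5.42 CPM, so replicate 2 was near the IFNa libraries, and the call was lost without the number 1 libraries. With IFNg alone Ciita averaged 14.6 CPM. H2-Oa, a chain of the class II loading modulator H2-O, was at 16.5, 21.2 and 15 CPM with the mixture, against 3.61, 3.19 and 1.83 CPM with IFNa (2.62 ± 0.516, edgeR adjusted p = 0.00185). The class II chains H2-Aa, H2-Ab1 and H2-Eb1 stayed at 0 to 1.93 CPM in all 6 libraries and did not pass. Cd74, the invariant chain, rose by 0.76 ± 0.16.

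Costimulatory and checkpoint ligands rose in 6 of 12 tested members and fell in 2. Cd40, the receptor of CD40 ligand on T cells, was at 661, 504 and 616 CPM with the mixture, against 48.6, 55 and 24.3 CPM with IFNa (3.81 ± 0.344, edgeR adjusted p = 1.51e-05). Cd86, a ligand of CD28, rose by 2.15 ± 0.24 and Cd274, which encodes PD-L1, by 1.36 ± 0.309. PD-L1 transcripts did not differ beyond error between mixture and IFNg alone (-0.06 ± 0.301, edgeR adjusted p = 0.92), while Cd40 averaged 86.3 CPM with IFNg, 2.79 ± 0.327 below the mixture. Vsir, which encodes the checkpoint protein VISTA, was at 59.6, 72.8 and 58.9 CPM with the mixture, against 105, 126 and 182 CPM with IFNa (-1.09 ± 0.167, edgeR adjusted p = 0.000254), and averaged 418 CPM in unstimulated cells. Tnfsf4, the gene of OX40 ligand, lay below 3 CPM in all libraries and its call (edgeR adjusted p = 0.0497) was not kept in 8 alternatives. DESeq2, 1 of these, gave it no adjusted p. Of this list 3 rose without the block, without mixture replicate 1 or without IFNa replicate 3, and 2 without the number 1 libraries.

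Genes of cell death and the inflammasome rose in 12 of 18 members and fell in 1, with a median of 0.52. Nlrp3, the inflammasome sensor, was at 305, 470 and 285 CPM with the mixture, against 45.3, 70.9 and 41.1 CPM with IFNa (2.75 ± 0.158, edgeR adjusted p = 3.66e-09). It averaged 397 CPM with TNFa alone, and the mixture did not differ from that beyond error (-0.19 ± 0.147, adjusted p = 0.342). Casp4, the sensor of cytosolic lipopolysaccharide, rose by 1.37 ± 0.175 and the adaptor Pycard by 1.17 ± 0.161. Bcl2l11, which encodes the killer protein BIM, was at 29.6, 55.8 and 29.2 CPM with the mixture, against 52, 55.4 and 142 CPM with IFNa, so the groups overlapped and the call (-1.06 ± 0.314, edgeR adjusted p = 0.0355) was lost in 7 alternatives. Of the cell death genes 6 rose without the block, without the number 1 libraries or with total counts and 7 without IFNa replicate 3.

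Toll-like receptors and adaptors rose in 7 of 16 tested members and fell in 0. Tlr1, a partner of TLR2 for bacterial lipoproteins, was at 150, 239 and 330 CPM with the mixture, against 44, 61.4 and 73.2 CPM with IFNa (1.98 ± 0.122, edgeR adjusted p = 3.94e-09). Tlr2 was at 242, 592 and 167 CPM with the mixture, against 127, 151 and 72.1 CPM with IFNa (1.44 ± 0.29, adjusted p = 0.00472), and its change was 0.98 without mixture replicate 2. It averaged 969 CPM with TNFa alone, above the mixture by 1.67 ± 0.291 (edgeR adjusted p = 0.00064). The call of Tlr2 was lost without the number 1 libraries. The endosomal receptors Tlr3, Tlr7, Tlr8, Tlr9 and Tlr13, which sense nucleic acids, did not pass (-0.40 to 0.24).

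Of 22 genes of complement and Fc receptors 14 rose and 0 fell, with a median of 0.57. C3, the central complement component, was at 240, 297 and 230 CPM with the mixture, against 16.2, 21.2 and 12.6 CPM with IFNa (3.94 ± 0.268, edgeR adjusted p = 3.36e-07). It averaged 70.4 CPM with TNFa and 37.1 CPM with IFNg, both below the mixture (1.85 ± 0.241 and 2.79 ± 0.252 lower, edgeR adjusted p = 3.08e-05 and 2.82e-06). Serping1, the inhibitor of C1, was at 60.4, 13.5 and 83.7 CPM with the mixture, against 6.4, 10 and 3.45 CPM with IFNa (2.80 ± 0.603, adjusted p = 0.00706), a call lost in the 6 libraries alone and without the number 1 libraries. The activating Fc receptor gene Fcgr4 rose by 1.15 ± 0.219. The C1q chains rose by less, for instance C1qa by 0.71 ± 0.0817. The count was 6 without the block and 8 without the number 1 libraries.

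Adhesion and matrix genes rose in 6 of 14 members and fell in 0. Icam1, the ligand of the integrin LFA-1, was at 1580, 1240 and 1740 CPM with the mixture, against 184, 231 and 97.6 CPM with IFNa (3.20 ± 0.274, edgeR adjusted p = 8.09e-06). Vcam1, the ligand of VLA-4, rose by 3.09 ± 0.521 and Mmp14, a membrane matrix protease, by 2.84 ± 0.355. Without the block 3 of these genes rose.

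Among homeostatic microglial genes 0 of 19 rose and 6 fell, with a median of -0.05. Mef2c, a transcription factor of microglia, was at 53.3, 80.8 and 83.7 CPM with the mixture, against 154, 170 and 255 CPM with IFNa (-1.41 ± 0.135, edgeR adjusted p = 1.01e-06). Cx3cr1, the fractalkine receptor, was at 110, 285 and 111 CPM with the mixture, against 235, 258 and 402 CPM with IFNa, and did not pass (-0.86 ± 0.312, edgeR adjusted p = 0.0821). Csf1r, Sall1 and P2ry12 did not pass either (-0.05 to 0.03). The number of homeostatic genes that fell was 3 without mixture replicate 1 or 3, without the number 1 libraries or in the 6 libraries alone, and 9 with total counts.

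Disease-associated microglial genes rose in 5 of 22 members and fell in 1, Ank. Cst7, which encodes the protease inhibitor cystatin F, was at 59.4, 49.8 and 53.8 CPM with the mixture, against 2.61, 2.6 and 2.27 CPM with IFNa (4.43 ± 0.478, edgeR adjusted p = 2.35e-05). It averaged 7.04 CPM with IFNg and 5.06 CPM with TNFa. The other increases were under 0.6 on the log2 scale. Apoe, a lipid carrier, was at 8960, 9610 and 3700 CPM with the mixture, against 7680, 7780 and 1790 CPM with IFNa, and its call (0.54 ± 0.173, edgeR adjusted p = 0.0467) was lost in 10 alternatives. The count of higher members was 1 without the block, without IFNa replicate 3 or without the number 1 libraries, 2 without IFNa replicate 2 or mixture replicate 3, 3 in the 6 libraries alone 8 without mixture replicate 2 and 9 with DESeq2. With total counts 1 rose and 7 fell, so the direction of this list depends on the scaling.

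Receptors for apoptotic cells and scavenger receptors rose in 8 of 20 members and fell in 2, with a median of 0.03. Timd4, a phosphatidylserine receptor, was at 32.2, 13.4 and 40.2 CPM with the mixture, against 5.87, 5.59 and 2.05 CPM with IFNa (2.57 ± 0.531, edgeR adjusted p = 0.00362), a call lost in the 6 libraries alone. Cd300a, an inhibitory receptor for phosphatidylserine, fell by 0.83 ± 0.119. Olr1, a receptor for oxidised lipoprotein, lay at or below 2.01 CPM in all 6 libraries, and its call was lost in 8 alternatives. The count was 3 higher without the block or the number 1 libraries, 4 without IFNa replicate 3 and 5 in the 6 libraries alone, and total counts gave 5 higher and 7 lower. Of 12 TGF-beta genes 1 rose and 2 fell, against 9.16% higher and 9.22% lower among all genes tested. Counts this small do not set the list apart. Without the number 1 libraries 0 rose and 1 fell, and with total counts 0 rose and 4 fell. Smad7, the inhibitory SMAD, was at 24.2, 25.5 and 22.6 CPM with the mixture, against 46.7, 47.4 and 46.6 CPM with IFNa (-0.96 ± 0.145, edgeR adjusted p = 0.000133).

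Immediate early genes rose in 7 of 21 members and fell in 2, and neither Fos, Jun nor Egr1 passed (0.07, -0.04 and 0.08). Klf4, a macrophage activation factor, was at 19.4, 3.94 and 21.3 CPM with the mixture, against 5.21, 3.53 and 3.3 CPM with IFNa, with replicate 2 inside the IFNa range (1.75 ± 0.414, edgeR adjusted p = 0.00683). Without that library the change was 2.25, and the call was lost without IFNa replicate 3, without the number 1 libraries and in the 6 libraries alone. Ier3 rose by 1.28 ± 0.216 and Nr4a1, an orphan nuclear receptor gene, fell by 1.54 ± 0.311, a call lost without the block.

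Cell cycle genes fell in 10 of 30 members and rose in 1, with a median of -0.38. Those that fell were the 6 subunits of the replication helicase, Mcm2, Mcm3, Mcm4, Mcm5, Mcm6 and Mcm7 (by 0.42 to 0.90), Pcna, the replication clamp, and the mitotic genes Cdk1, Aurkb and Bub1b. Mcm3 was at 28.5, 25.1 and 32.2 CPM with the mixture, against 52.6, 40.4 and 68.5 CPM with IFNa (-0.90 ± 0.122, edgeR adjusted p = 5.1e-05). Cdkn1a, which encodes the cell cycle inhibitor p21, was the member that rose, at 811, 942 and 632 CPM with the mixture, against 393, 461 and 321 CPM with IFNa (1.02 ± 0.201, edgeR adjusted p = 0.00291). Its call was lost without the number 1 libraries. The count of lower members was 4 without the block or mixture replicate 3, 5 without the number 1 libraries and 6 in the 6 libraries alone, against 16 with total counts. Mki67 and Top2a did not pass.

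Glycolytic genes rose in 4 of 19 and fell in 1, led by the glucose transporter gene Slc2a1 (1.13 ± 0.132) and the phosphofructokinase gene Pfkp (1.14 ± 0.152). Their number was 2 without the block, 7 with a filter of at least 1 CPM in 3 libraries, and 9 with DESeq2 or RLE size factors. Pdk1, whose product inhibits pyruvate dehydrogenase, fell by 0.67 ± 0.176. Its call was lost without the block, without mixture replicate 2, without the number 1 libraries and in the 6 libraries alone. Sterol genes fell in 4 of 17 and rose in 1. Dhcr7, which catalyses the last step to cholesterol, was at 18.8, 21.4 and 12.9 CPM with the mixture, against 35.8, 38.1 and 36.7 CPM with IFNa (-1.07 ± 0.14, edgeR adjusted p = 3.07e-05). Without the block or the number 1 libraries 1 sterol gene fell, without mixture replicate 3 there were 2, and with total counts 9.

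Among the remaining genes taken by the naming rule (mean log2 CPM of at least 3, groups apart, no predicted or marker genes), the largest fall was that of Cebpa, which encodes the myeloid factor C/EBPalpha. It was at 38.2, 74.3 and 33.5 CPM with the mixture, against 364, 383 and 696 CPM with IFNa (-3.37 ± 0.389, edgeR adjusted p = 0.00014). It averaged 153 CPM with TNFa, 388 with IFNg, 614 with IL-6 and 923 in unstimulated cells, and the mixture was below each single cytokine, by 1.67 ± 0.366 against TNFa (adjusted p = 0.00362, and 0.081 without the number 1 libraries). Gpr183, the receptor of oxysterols made by way of CH25H, was at 0.743, 4.37 and 0.347 CPM with the mixture, against 11.3 to 12.6 CPM with IFNa (-2.86 ± 0.471, adjusted p = 0.00107). Without mixture replicate 2, its highest mixture library, the change was -4.29. Unstimulated cells averaged 61.9 CPM of Gpr183. Baiap2l2, Rtn4rl1, Zfp395 and Asb10 fell by 2.54 to 2.97, and their unstimulated means of 34.3 to 51.3 CPM lay above both groups. Rtn4rl1 lost its call without the number 1 libraries.

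Of the 6 genes taken for the largest remaining increases, Clec4e and Gpr84 were higher still with TNFa alone. Clec4e, which encodes the lectin receptor Mincle, was at 18.6, 47.8 and 34.3 CPM with the mixture, against 1.42, 1.66 and 1.39 CPM with IFNa (4.44 ± 0.382, edgeR adjusted p = 4.16e-06), and averaged 222 CPM with TNFa. Gpr84, a receptor for medium-chain fatty acids, was at 73.3, 163 and 110 CPM with the mixture, against 5.1, 6.92 and 4.11 CPM with IFNa (4.40 ± 0.25, adjusted p = 2.31e-08), and averaged 331 CPM with TNFa. The mixture was below TNFa alone by 2.76 ± 0.294 for Clec4e and 1.57 ± 0.207 for Gpr84 (edgeR adjusted p = 5.77e-06 and 2.36e-05). Cdc42ep2, an effector of CDC42, rose by 4.54 ± 0.417 and did not differ beyond error from IFNg or TNFa alone (0 ± 0.332 and -0.43 ± 0.321). Serpina3g, a protease inhibitor gene with a near-identical copy in Serpina3f, rose by 4.11 ± 0.581, a call lost in the 6 libraries alone and without the number 1 libraries, and averaged 94.5 CPM with IFNg and 0.657 CPM with TNFa.

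**Figure D5:**
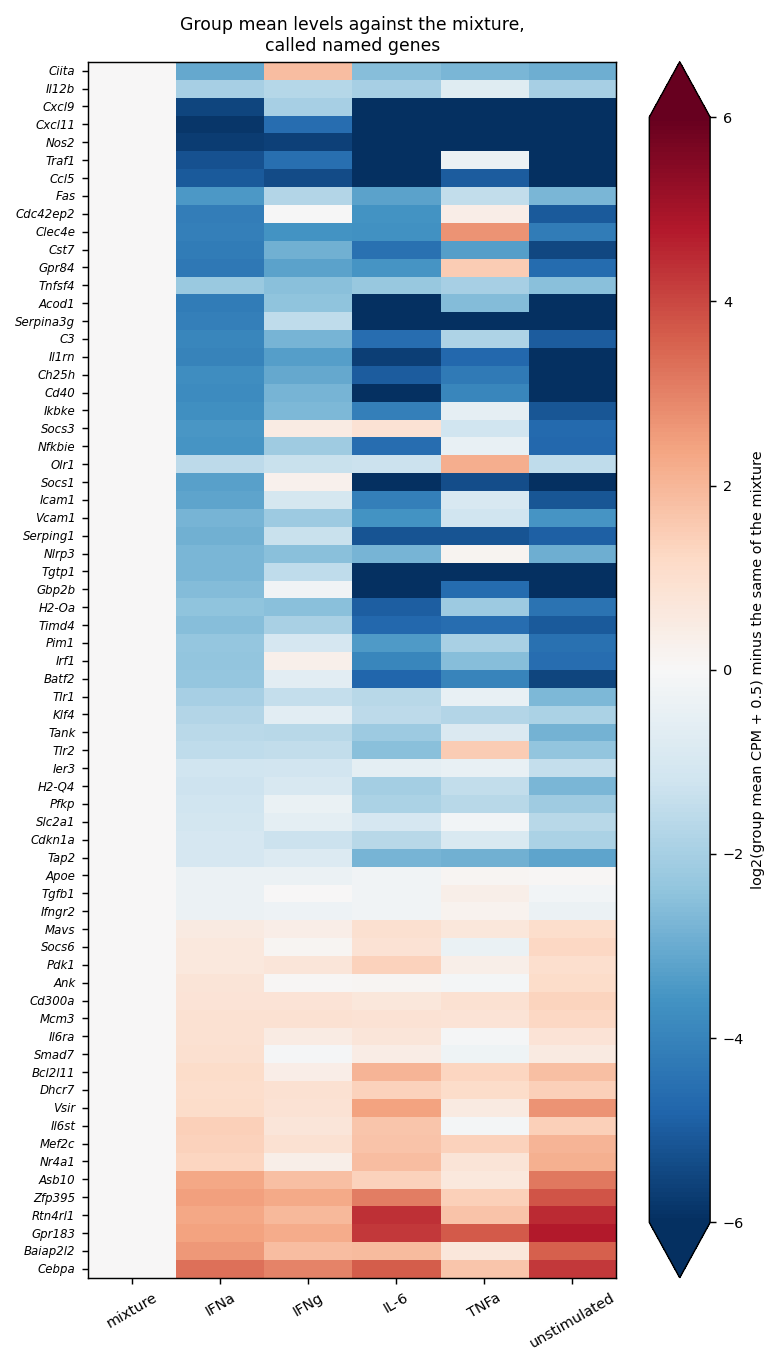
Mean level of the called named genes in each neonatal group as a difference from the mixture (colour, log2 of group mean CPM + 0.5), genes ordered by their change from IFNa to the mixture. Blue means lower and red higher than the mixture. Clec4e, Gpr84, Olr1 and Tlr2 are red with TNFa, Ciita is red with IFNg, and Nos2, Ccl5 and Cxcl11 are blue in every other group.

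Markers of cell types bear on these levels, since in bulk samples fewer cells of a type and less RNA per cell cannot be told apart. The microglial and macrophage gene Csf1r stood at 1470 to 2400 CPM in the 6 libraries, while 3 markers of the same list, Aif1, Ptprc and Itgam, rose and 1 fell. The one that fell, Tmem119, a defining marker of adult microglia, was at 0.486 to 1.17 CPM with the mixture, against 1.69 to 2.46 CPM with IFNa. The sum of 10 such markers ranged over 5364 to 6740 CPM with the mixture, against 5593 to 6349 CPM with IFNa. Of the 9 astrocyte, 8 neuron, 8 monocyte and 3 dendritic cell markers tested 0 were called. The same held for 7 endothelial markers, 8 markers of mural cells or fibroblasts and 1 erythroid marker. Among 9 border macrophage and 8 neutrophil markers 2 and 1 rose, and 1 marker each of B cells, oligodendrocytes and their precursors fell. No NK cell marker passed the filter, with sums of 0.1 to 0.8 CPM with the mixture, against 0 to 0.3 CPM with IFNa. Summed astrocyte markers ranged over 59.3 to 422 CPM with the mixture, against 66.7 to 364 CPM with IFNa, and neuron markers over 10.3 to 88.4 against 8.9 to 68.3 CPM. Of 9 T cell markers 2 were tested and 1, Lck, rose, to 72.6, 24.2 and 51.3 CPM with the mixture, against 6.04, 7.92 and 2.5 CPM with IFNa (3.19 ± 0.455), while Cd8a and Cd8b1 had 0 reads in all 6 libraries and Cd3d and Cd3e had 0 in the mixture libraries. Trbc2 had 7 reads over the mixture libraries and 0 over the IFNa libraries, and Cd3g averaged 0.0248 CPM with the mixture and 0 CPM with IFNa. The part of other cells in the changes above was not tested.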

How the data were processed

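Gene-level read counts, as deposited by the authors (raw per the file headers), were analysed for 18 neonatal MRL/lpr microglia libraries, 3 in each of 6 groups. The submitters' processing notes name cutadapt 2.1, STAR 2.7.1a and mm10. The counting step and its strand option are not given in any source used here. Overlapping, antisense and near-identical genes are therefore uncertain. Library preparation kept strand information, per the labels' protocols. Totals were 14.87, 16.51 and 18.98 M counts in the mixture libraries, against 16.02, 15.78 and 14.49 M in the IFNa libraries. Within groups, libraries differed beyond counting error (chi-square per degree of freedom of at least 15.71).

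The fit used edgeR 4.0.16 in R 4.3.3 with filterByExpr, TMM scaling and the robust quasi-likelihood F test. Its terms were the 6 groups and the replicate number as a block, which left 10 residual degrees of freedom. P-values were adjusted by Benjamini-Hochberg over 14626 genes and read at 0.05. Standard errors came from the log2 fold change and F. CPM are TMM-scaled and were computed from the deposited counts. All 45 pairs of same-numbered libraries deviated together from their group means (correlations of 0.18 to 0.679). Pairs with different numbers had correlations of -0.515 to 0.229, and 12 of these 90 were above 0.1, so the ranges overlapped. The numbers therefore pair the libraries, most clearly for number 1. Mixture replicate 2 correlated at 0.249 with IFNa replicate 2 and at 0.189 with IFNa replicate 3. The meaning of the numbers is not in the labels. Coordinates came from GENCODE M21, which held 99.57% of the genes.

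The 26 function lists, the 15 marker lists and the tests were chosen with earlier results of these data known. Lists are described by counts and medians, without a test of the list. Some genes stand in more than 1 list, so the counts of different lists are not independent. Icam1 and Vcam1 count under NF-kappaB and adhesion, and Sod2 and Ptgs2 under NF-kappaB and nitric oxide. Ier3 counts under NF-kappaB and immediate early genes, Axl under disease-associated genes and scavenger receptors, and Tgfb1 under cytokines and TGF-beta. Named genes were Ikbke, Fas and the receptors, then the 2 called members with the largest increase and the 1 with the largest decrease in each function list, then 6 genes each way with the largest change outside them (mean log2 CPM of at least 3, groups apart, no predicted or marker genes). Further list members were named after their values were seen. Tested on simulated data for this comparison (14276 genes, of which 200 were changed), the fit recovered 44.8% of 2-fold and 79.8% of 4-fold changes, with 6.15% false calls. The simulated increases and decreases were balanced and far fewer than the 2689 calls in the data. The simulation therefore does not test the effect of the scaling. Alternatives were no block, DESeq2 1.42.0, limma-voom (limma 3.58.1), RLE size factors, total counts, 2 other filters, the 6 libraries alone and each replicate left out. Leaving out all libraries numbered 1 was chosen after seeing the data. A few genes that the rules took in are not reported here.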

Additional observations from a re-analysis of the deposited data

How the results depend on the processing

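Ikbke kept its increase and its call, mixture minus IFNa, under all 15 alternatives, with log2 fold changes of 3.43 to 3.91 when libraries were left out. No called named gene reversed its direction between mixture and IFNa in any of them. Ifnar2, which was not called, ranged from -0.13 to 0.2 across them. Of the 68 named genes called, 26 lost the call in at least 1 of the 15 alternatives. Leaving aside the alternative without the libraries of number 1, 46 kept the call throughout. The number of genes called was 2689. It was 1161 without the replicate block (608 higher, 553 lower) and 4462 with total counts (731 higher, 3731 lower). In the 6 libraries fitted alone it was 1686 (723 lower), and without the libraries of number 1 it was 1166 (665 higher, 501 lower). Leaving out 1 library in turn gave 1633 to 2491 calls, with 848 to 1455 higher and 763 to 1113 lower. Calls of at least 2-fold numbered 734 and lay between 523 and 1010. Settings that leave out libraries estimate the spread from fewer degrees of freedom. The cause of each lost call was not tested. Total counts moved the median of all genes to -0.27. Among differences of named genes from TNFa alone that were called under either scaling, 1 reversed, that of Ifnar2 (-0.31, against 0.04 with TMM). The 20 genes with the largest gain in their share of reads took 6.70 to 7.21% of reads with the mixture, against 3.45 to 4.20% with IFNa. Depth limits genes of few reads, among them Il12b, Ciita, Tnfsf4, Olr1 and Ifnb1.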
